A study of Mus musculus with 5 samples.

Results

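The vascular endothelial growth factor (VEGF) ligands and their receptors were read in MC38 tumors by single-cell RNA sequencing (scRNA-Seq). The set held 9 of the 33696 gene rows of the matrices and was chosen by gene name, with earlier results of these data known and no threshold on a measured value: 4 ligands (Vegfa, Vegfb, Vegfc and Pgf), 3 receptor tyrosine kinases (Kdr, Flt1 and Flt4) and 2 neuropilin coreceptors (Nrp1 and Nrp2). All 9 had unique molecular identifiers (UMIs, 1 for each captured RNA molecule) in both tumor reactions.

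MC38, a mouse colon carcinoma line, was grown under the skin of wild-type male C57BL/6J mice aged 8 to 10 weeks. Mice received isotype control antibody or checkpoint inhibition (CPI, anti-CTLA4 with anti-PD-1) in 3 doses, given on day 3, day 6 and day 9, then DPBS vehicle or the JAK1 inhibitor ABT-317 at 20 mg/kg on day 12, and tumors were taken on day 15. This gave 4 treatments: isotype, isotype with ABT-317, CPI and CPI + ABT-317. Sorted live CD45+ and CD45- cells were mixed 1:1 and loaded as 2 reactions of 60000 cells, so the shares of the cell classes were set by the mix, and hashtag antibodies marked the treatment of a cell. In the deposited key each treatment has 1 hashtag in a reaction and mice are not told apart. The replicate was therefore the reaction, and p-values measured the spread between sums of 2 reactions, which may be technical.

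Of 37774 and 27582 barcodes, 16897 and 14747 passed the gene and mitochondrial filters with exactly 1 hashtag present. Depth differed by treatment: the median was 5308 and 7357.5 UMIs per cell with isotype, 16414 and 23929 with isotype and ABT-317, 2047 and 2679 with CPI, and 16649 and 22818 with CPI + ABT-317. Another 14659 and 5950 passing barcodes carried several hashtags and were left out as likely doublets. The CPI hashtag was the least separated, with background and positive components at 17.67 and 53.11 UMIs in reaction 1 and 10.04 and 35.06 in reaction 2, against 40.28 and 215.18 and 15.49 and 152.54 for the isotype hashtag, and every CPI value rests on that assignment. In addition 1416 barcode sequences occurred in both reactions.

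In this family VEGF-A is the main driver of blood vessel growth and is a known transcriptional target of hypoxia-inducible factors. It binds VEGFR2 (Kdr), the main signaling receptor of blood endothelium, and VEGFR1 (Flt1), a high-affinity receptor that also exists as a soluble decoy. PlGF (Pgf) and VEGF-B bind VEGFR1, and VEGF-C binds VEGFR3 (Flt4), which is best known from lymphatic endothelium. Neuropilin 1 and neuropilin 2 have no kinase activity, present VEGF to these receptors, and also bind class 3 semaphorins together with plexins. The kit counts the 5′ ends of transcripts per gene, so neither the splice forms of Vegfa nor soluble Flt1 were separated.

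Leiden clustering, run without the 9 genes, gave 17 clusters, which were joined into 8 classes and 6 further clusters that stayed unnamed. The endothelial-like class held 96 cells, 48 in each reaction, with all 12 of its markers detected, the leading genes Cdh5, Igfbp3 and Gpihbp1 and a median of 3123.5 UMIs. All 5 lymphatic endothelial markers were detected there as well, at a summed 286 CPM (UMIs of the genes scaled to 1000000 UMIs of the group of cells), against at most 5.11 CPM in any other class or unnamed cluster. The pericyte-like class had 212 cells with 10 of 10 markers, the fibroblast-like class 1744 cells with 10 of 10, and the macrophage-like class 8556 cells with 12 of 12. The T cell-like class had 1055 cells, the dendritic cell-like class 212, and the neutrophil-like class 103, in which the macrophage markers summed to 10235 CPM.

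The remaining class held 13678 cells with little Ptprc, the gene of CD45 (1.20 CPM), a median of 21603 UMIs and no marker list met. It is called Ptprc-low here and is not named as tumor, because no listed marker set was met: the epithelial list summed to 122 CPM, most of it Hmga2 (76.8 to 131 CPM in its clusters 1 to 3), with Epcam at 0.01 CPM or less. That list was higher in dendritic cell-like cells (316 CPM, with Epcam, Cdh1 and Areg) and highest in unnamed cluster 8 (676 CPM, of which Hmga2 was 656). Among the unnamed clusters, clusters 5 and 11 carried macrophage markers (11 of 12 and 12 of 12) at shallow depth (medians of 1011 and 1681 UMIs). Cluster 8 had 24.3% of its UMIs from genes of at least 100 kb, cluster 5 17.6% and endothelial-like cells 12.9%, against 4.44% in Ptprc-low cells. Vegfc, Nrp2, Nrp1 and Flt1, at 109491 to 164408 bases, are such genes, and the part of gene length in their levels was not tested.

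The first sequences below are the 250 bases before the start sites of the 3 VEGF receptor genes, shown because these genes peaked in the same class. They come from RefSeq on GRCm38.p6, are written 5′ to 3′ on the gene's own strand, and have in capitals each match on either strand to GGAAG, the core bound by ETS factors, a family long linked to endothelial genes. Kdr is at chr5:75978456-75978705 on the minus strand, Flt1 at chr5:147726012-147726261 on the minus strand, and Flt4 at chr11:49609429-49609678 on the plus strand. The Flt4 window precedes the RefSeq start but lies inside the gene body that GENCODE gives.
Kdr: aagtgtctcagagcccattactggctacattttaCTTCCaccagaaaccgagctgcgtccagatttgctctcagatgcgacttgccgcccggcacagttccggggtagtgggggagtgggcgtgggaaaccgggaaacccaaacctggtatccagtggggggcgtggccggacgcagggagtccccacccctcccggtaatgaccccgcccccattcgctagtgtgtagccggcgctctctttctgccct
Flt1: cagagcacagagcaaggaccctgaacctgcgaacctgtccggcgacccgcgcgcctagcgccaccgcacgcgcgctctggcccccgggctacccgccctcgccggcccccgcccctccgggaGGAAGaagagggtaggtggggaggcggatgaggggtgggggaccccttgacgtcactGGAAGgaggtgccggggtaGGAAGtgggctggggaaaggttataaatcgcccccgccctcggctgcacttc
Flt4: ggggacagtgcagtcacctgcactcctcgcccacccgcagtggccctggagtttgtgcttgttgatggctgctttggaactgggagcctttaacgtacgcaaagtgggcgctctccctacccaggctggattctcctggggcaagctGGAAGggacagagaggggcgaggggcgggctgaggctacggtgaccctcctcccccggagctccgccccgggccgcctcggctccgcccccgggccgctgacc
Kdr and Flt4 had 1 match each and Flt1 had 3. Of all 32851 promoter windows of this length 64.1% held the core, so its presence did not set these genes apart.

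For Vegfa the hypoxia element core, ACGTG or GCGTG on either strand, had 0 matches in the window before the upstream start and 2 in the window before the annotated internal start, chr17:46025164-46025413 on the minus strand. That window is shown with the matches in capitals because Vegfa levels are set beside hypoxia genes further on.
Vegfa, internal start: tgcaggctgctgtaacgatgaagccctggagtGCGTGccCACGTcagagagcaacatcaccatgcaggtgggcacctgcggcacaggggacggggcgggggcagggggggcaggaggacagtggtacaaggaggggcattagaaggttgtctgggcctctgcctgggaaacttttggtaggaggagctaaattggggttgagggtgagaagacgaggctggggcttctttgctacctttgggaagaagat
The internal window lies inside the Vegfa gene body that GENCODE gives. It can therefore hold coding sequence of the longer transcript, and the overlap of the matches with exons was not examined. The core was in 38.6% of all windows. Among the other members it had 2 matches each before Vegfb, Kdr and Nrp2, and 1 each before Flt1, Nrp1 and the upstream Pgf start. It had 0 matches before Vegfc and Flt4, so its presence did not set Vegfa apart. A match describes letters in a window and is not a shown binding site. The gene bodies in GENCODE M21 on GRCm38 are at chr17:46016993-46032369 for Vegfa, chr19:6982473-6987651 for Vegfb, chr8:54077606-54187096 for Vegfc and chr12:85166635-85177790 for Pgf. The receptors are at chr5:75932827-75978458 for Kdr, chr5:147561604-147726011 for Flt1, chr11:49609263-49652739 for Flt4, chr8:128358604-128503363 for Nrp1 and chr1:62703285-62818695 for Nrp2, and all 9 are protein coding.

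The receptor tyrosine kinases were concentrated in endothelial-like cells. UMIs were summed over the cells of a class in each reaction and given as CPM, so a level is a share of the class's RNA and not a number of molecules per cell. Flt1 was at 852 and 932 CPM in endothelial-like cells of the 2 reactions (892 ± 56.7, SD, n = 2, 326 UMIs), and at 207 and 168 CPM in pericyte-like cells (188 ± 27.9, 154 UMIs), 4.75-fold less. Both the level and the fold depended on the mix of treatments: with CPI, which gave 79 of the 96 endothelial-like cells, Flt1 was at 545 and 532 CPM against 181 and 183 CPM in pericyte-like cells, and with isotype at 1869 and 1783 CPM (13 cells) against 206 and 171 CPM. Counting all passing barcodes, also those with several hashtags or none, lowered Flt1 in endothelial-like cells to 505 CPM. Every other class was below 20 CPM: fibroblast-like cells had 2.73 and 4.96 CPM, macrophage-like cells 1.75 and 1.87 CPM and Ptprc-low cells 0.358 and 0.376 CPM.

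Kdr was the most restricted member. Endothelial-like cells had 267 and 406 CPM (336 ± 98.7, SD, n = 2, 126 UMIs), 67.8-fold above fibroblast-like cells, the next class, at 3.23 and 6.69 CPM. Pericyte-like cells, which carried Flt1, had 0 Kdr UMIs in both reactions, a count that allows up to 7.78 and 6.81 CPM. The 13678 Ptprc-low cells together had 3 Kdr UMIs. Limits and intervals here and below cover counting error only.

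Flt4 rested on few molecules. Endothelial-like cells had 45.5 and 62.1 CPM from 7 and 13 UMIs (53.8 ± 11.7, SD, n = 2), and the rest of the data held another 30 UMIs, of which 13 were in Ptprc-low cells at 0.0436 CPM. For all 3 genes the lower endothelial-like reaction was above the higher reaction of every other class. With 2 reactions no test between classes was run, and these orders describe the 2 reactions.

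**Figure D1:**
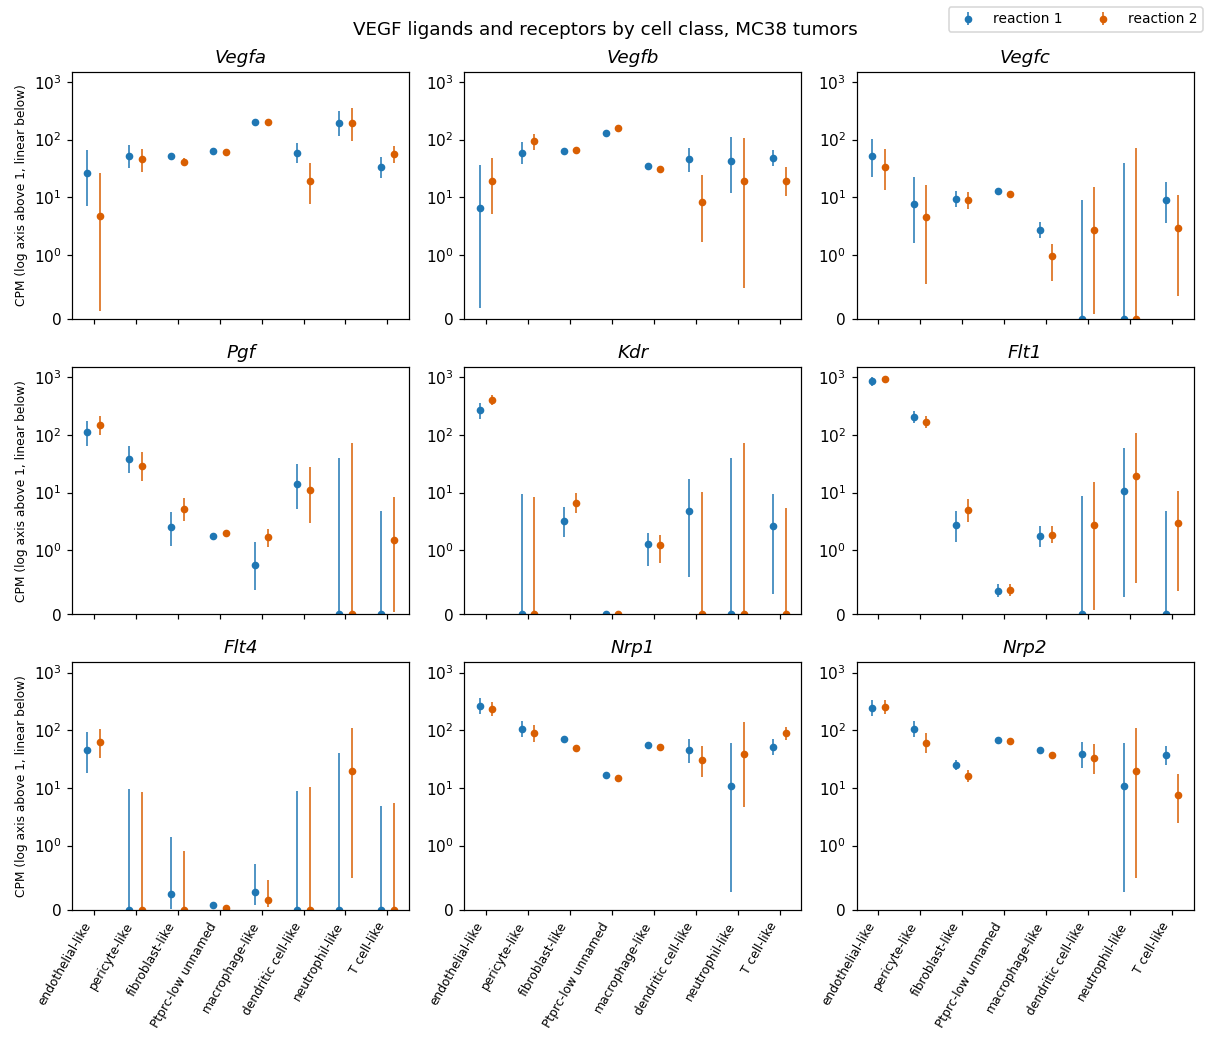
Level of each of the 9 genes (CPM of summed UMIs, axis logarithmic above 1 and linear below) in the 8 cell classes, with 1 point per reaction and exact Poisson 95% intervals. Kdr, Flt1, Flt4, Nrp1, Nrp2 and Pgf have their highest points in endothelial-like cells, Vegfa in macrophage-like cells and Vegfb in Ptprc-low cells.

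The neuropilins were also highest among the 8 classes in endothelial-like cells, but UMIs of both were counted in every class. The share of free RNA in the droplets was not estimated, so low levels, such as the 3 Nrp1 and 2 Nrp2 UMIs of neutrophil-like cells, are not read as expression. Nrp1 was at 267 and 234 CPM in endothelial-like cells (250 ± 22.9, SD, n = 2), 2.57-fold above pericyte-like cells at 106 and 88.5 CPM. The pericyte-like level depended on the mix of treatments, being lower with isotype than with CPI by the values given further on. T cell-like cells (51.6 and 89.5 CPM), fibroblast-like cells (69.3 and 48.3 CPM) and macrophage-like cells (55.8 and 50.8 CPM) overlapped and could not be ordered. Ptprc-low cells had the lowest mean, at 16.6 and 14.9 CPM (neutrophil-like cells, with 3 UMIs, overlapped them), although their number and depth gave them 4937 Nrp1 UMIs.

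Nrp2 was at 247 and 258 CPM in endothelial-like cells (253 ± 7.78, SD, n = 2), 3.02-fold above pericyte-like cells at 106 and 61.3 CPM. Within a treatment it was at 90.4 and 154 CPM with isotype (7 and 6 cells), against 92.9 and 88.7 CPM in pericyte-like cells. With CPI (40 and 39 cells) it was at 285 and 328 CPM, against 115 and 36.5 CPM. Both the level and the fold thus depended on the mix, although the isotype values rested on few cells. Unnamed cluster 8 reached the same level (258 and 257 CPM), and unnamed cluster 11 had 226 and 208 CPM. Unlike Nrp1, Nrp2 was higher in Ptprc-low cells (67.2 and 64.1 CPM) than in macrophage-like cells (46.0 and 37.9 CPM) or fibroblast-like cells (25.1 and 16.1 CPM), with no overlap between reactions over all treatments together. That order followed the makeup of the macrophage-like class, of which 3547 of 4094 and 3875 of 4462 cells were isotype: with CPI (127 and 255 CPM) and CPI + ABT-317 (93.5 and 83.6 CPM) macrophage-like Nrp2 was above that of Ptprc-low cells in any treatment (63.0 to 79.3 CPM).

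The antibody panel held CD304, which is neuropilin 1, and CD31, which is the product of the endothelial gene Pecam1. Their 15-base tags are shown because they are the protein readout beside the RNA.
CD304: ccagctcattcaacg
CD31: gctgtagtatcatgt
CD31 followed its RNA: endothelial-like cells had 518 and 473 CD31 UMIs per 10000 panel UMIs, where all other classes had 23.8 to 27.5, within the range of the 9 isotype control antibodies (8.86 to 36.6). CD304 was above those controls in all 8 classes but did not separate them, at 387 and 376 per 10000 in endothelial-like cells, 394 and 382 in Ptprc-low cells and 403 and 391 in macrophage-like cells. The CD45 antibody did not separate macrophage-like cells from the controls either, at 30.0 and 32.8 per 10000. The antibody reading thus gave no order that could be set beside the Nrp1 RNA.

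**Figure D2:**
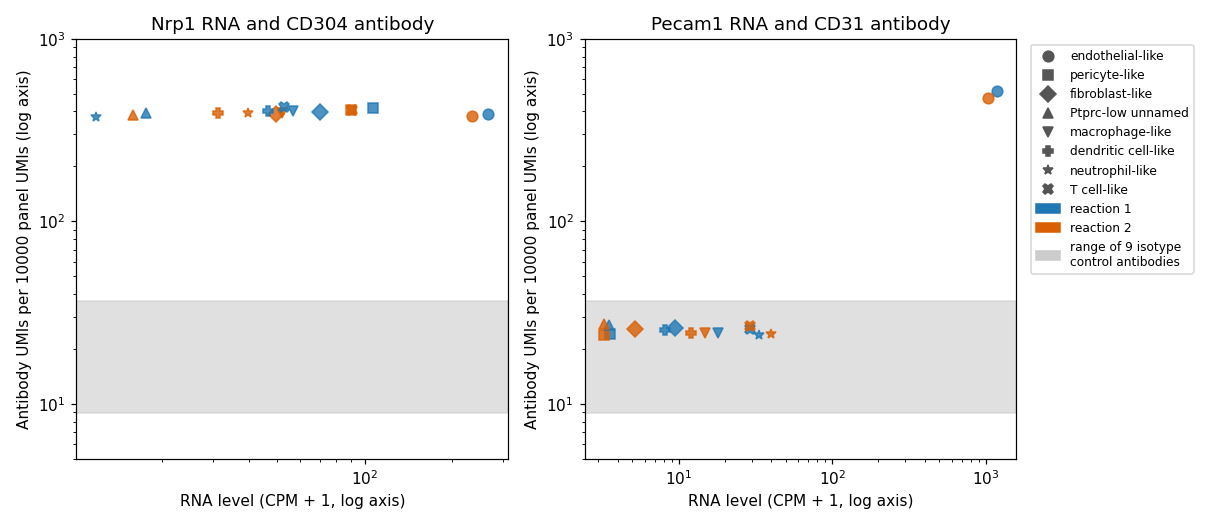
Antibody UMIs per 10000 panel UMIs (log axis) against the RNA level (CPM + 1, log axis) for Nrp1 with CD304 (left) and Pecam1 with CD31 (right), with 1 symbol per class and 1 color per reaction. The gray band is the range of 9 isotype control antibodies. CD304 lies between 371 and 426 in all 8 classes, while CD31 leaves the band in endothelial-like cells alone.

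Nrp1 is a known surface marker of thymus-derived regulatory T cells, so T cell-like cells were split by their own UMIs. Cells with a Foxp3 UMI (23 and 19 cells) had 4 and 5 Nrp1 UMIs, or 87.8 and 98.4 CPM. Cells with a UMI of Cd8a or Cd8b1 and none of Cd4 or Foxp3 (201 and 195 cells) had 7 and 19, or 26.4 and 71.7 CPM. The Cd4 set, without Cd8a, Cd8b1 or Foxp3 UMIs (24 and 36 cells), had 1 and 9, or 26.8 and 142 CPM, which in reaction 2 was above the Foxp3 cells. The Foxp3 value was above that of the CD8 cells in each reaction, but the exact Poisson 95% intervals overlapped (23.9 to 225 against 10.6 to 54.4 CPM in reaction 1), and no difference was detectable at this depth.

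The ligands had other leading classes than the receptors, except for Pgf and Vegfc. Vegfa was at 202 and 201 CPM in macrophage-like cells (201 ± 1.04, SD, n = 2, 6740 UMIs) and at 195 and 194 CPM in neutrophil-like cells, where it rested on 28 UMIs. Ptprc-low cells had 62.6 and 60.1 CPM, pericyte-like cells 51.8 and 45.4 CPM and fibroblast-like cells 51.9 and 40.9 CPM. Endothelial-like cells, the class with most receptor RNA, had the lowest mean at 26.0 and 4.78 CPM, from 5 UMIs, overlapping dendritic cell-like cells (59.6 and 19.3 CPM). The unnamed clusters 11 (315 and 336 CPM), 5 (268 and 311 CPM) and 8 (206 and 232 CPM) lay above the macrophage-like class, and clusters 11 and 5 carried its markers.

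Vegfb, a ligand of VEGFR1, was highest in Ptprc-low cells at 132 and 160 CPM (146 ± 20.1, SD, n = 2, 46649 UMIs), 1.92-fold above pericyte-like cells at 59.6 and 93.0 CPM. Fibroblast-like cells had 64.3 and 65.5 CPM, macrophage-like cells 34.2 and 31.5 CPM, and endothelial-like cells 6.50 and 19.1 CPM from 5 UMIs. Vegfa and Vegfb thus had opposite orders in macrophage-like and Ptprc-low cells, in both reactions.

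Vegfc was at 52 and 33.5 CPM in endothelial-like cells (42.7 ± 13.1, SD, n = 2, 15 UMIs), at 12.9 and 11.5 CPM in Ptprc-low cells and at 2.74 and 0.988 CPM in macrophage-like cells. Its place in endothelial-like cells depended on the mix of treatments: 10 of the 15 UMIs came from the 13 isotype cells, while the 79 CPI cells were at 0 and 29.2 CPM against 8.13 to 14.2 CPM in Ptprc-low cells over the treatments, below them in reaction 1 and above them in reaction 2. Unnamed cluster 8 exceeded all classes, at 104 and 106 CPM. Pgf was at 111 and 148 CPM in endothelial-like cells (129 ± 26.6, SD, n = 2, 48 UMIs), 3.78-fold above pericyte-like cells at 38.9 and 29.5 CPM. The Pgf level and fold also depended on the mix of treatments. By the values given further on, endothelial-like Pgf with isotype was below that pericyte-like level in reaction 2. Dendritic cell-like cells had 14.3 and 11 CPM, and every other class was at 5.21 CPM or below. With all passing barcodes Pgf in endothelial-like cells was at 82.5 CPM. A single endothelial-like cell, of isotype with ABT-317 in reaction 2, held 14 of the 31 Pgf UMIs of the class in that reaction.

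Where the molecules came from followed class size as well as level. Ptprc-low cells were 40.8% and 46.0% of the cells, and they held 56.6% and 63.1% of the Vegfa UMIs, 85.0% and 89.0% of the Vegfb UMIs and 62.6% and 83.6% of the Vegfc UMIs. Macrophage-like cells were 24.2% and 30.3% of the cells and held 18.6% and 23.1% of Vegfa but only 2.25% and 1.91% of Vegfb. Depth differed between the classes too: all genes together had 139836759 and 175615985 UMIs in Ptprc-low cells and 14258669 and 19227392 in macrophage-like cells. A share of UMIs above the share of cells is therefore not a higher level. As a share of the class's RNA, Vegfa was higher in macrophage-like cells, by the CPM values above. Endothelial-like cells, at 0.284% and 0.325% of the cells, held 43.6% (exact binomial 95% interval 33.4 to 54.2) and 57.4% (49.0 to 65.5) of the Kdr UMIs and 40.4% and 46.0% of the Flt1 UMIs. The same cells held 4.79% and 6.20% of Pgf and 0.0259% and 0.00600% of Vegfa. These shares depend on the 1:1 mix and on the depth of each class, and fewer cells of a type and less RNA per cell cannot be told apart in them.

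**Figure D3:**
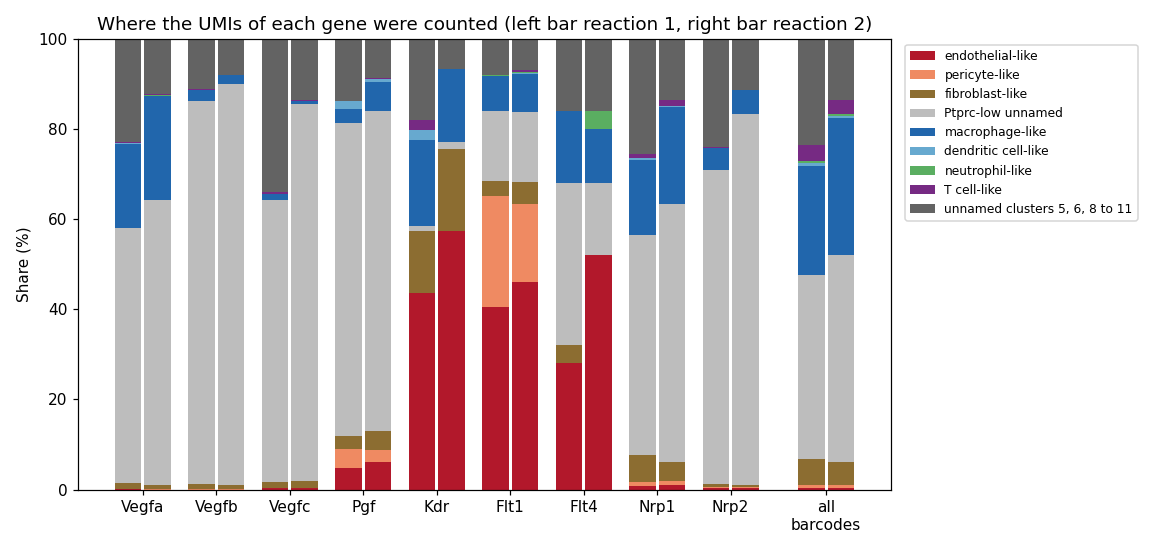
Share (%) of the UMIs of each gene counted in each class, with the left bar of a pair for reaction 1 and the right bar for reaction 2, beside the share of all barcodes (rightmost pair). Endothelial-like cells make up 0.284% and 0.325% of barcodes but 43.6% and 57.4% of Kdr UMIs. Shares of UMIs also follow the depth of each class, and the rightmost pair is not the share of all UMIs.

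Levels also varied within the 2 large classes, here described by the clusters inside them. Among macrophage-like cells, split at a resolution of 1.0, cluster 10 had the highest summed hypoxia genes (9338 and 10230 CPM, with genes such as Slc2a1, a glucose transporter, and Bnip3, a mitophagy receptor) and the highest Vegfa (378 and 423 CPM). Cluster 1 had the lowest hypoxia sum (3422 and 3097 CPM) and the lowest Vegfa (92.6 and 75.2 CPM). Clusters 2 and 18 lay between these in the same rank order for both measures, but not in proportion. The hypoxia sums were 4715 and 4721 CPM in cluster 2 and 4683 and 3869 CPM in cluster 18. Vegfa was at 270 and 256 CPM in cluster 2 and 135 and 157 CPM in cluster 18. Nrp1 ran the other way between clusters 1 and 10, at 71.9 and 67 CPM in cluster 1 and 41.0 and 21.4 CPM in cluster 10. Clusters were formed from the expression of these cells, so the values describe the clusters and support no test.

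Among Ptprc-low cells Vegfa moved less: the cycling cluster 1 (Ube2c, Rrm2, Cdk1) had 45.8 and 44.5 CPM, cluster 2 (H19, Cilp, Wnt6) 80.5 and 76.6 CPM, and cluster 3, led by the hypoxia genes Ero1a, Ankrd37 and Bnip3, 87.2 CPM in both reactions. Nrp1 was highest in cluster 2 (35.6 and 31.5 CPM, against 11.5 and 10.0 in cluster 1 and 8.43 and 6.38 in cluster 3), as was Pgf (3.97 CPM in both reactions, against 0.657 and 0.748 in cluster 1 and 2.20 and 3.35 in cluster 3). Nrp2 was highest in cluster 3, at 90.4 and 90.3 CPM, and Vegfc ranged over the 3 clusters from 10.7 to 13.1 CPM.

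**Figure D4:**
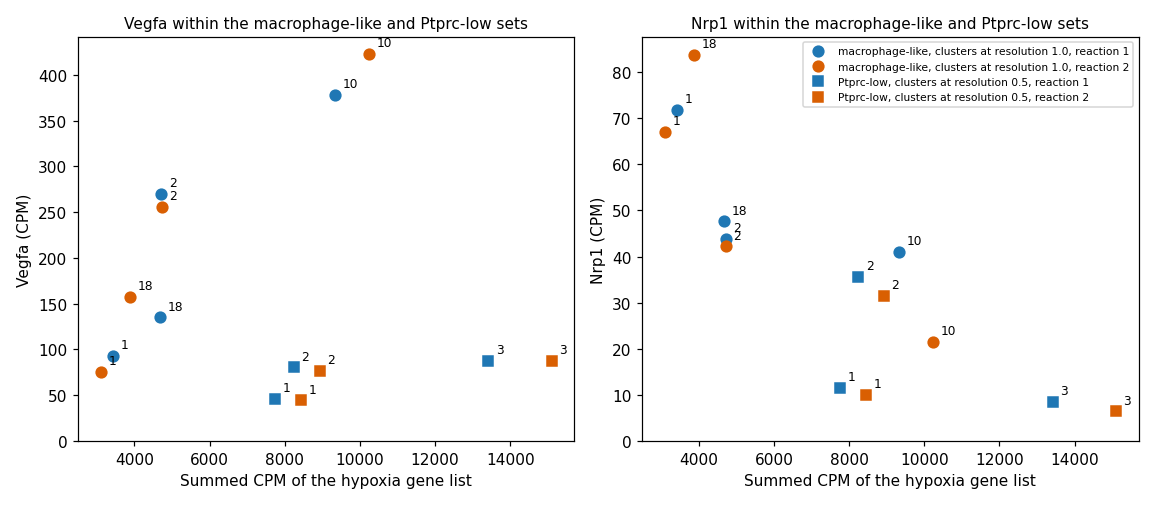
Vegfa (left) and Nrp1 (right) level in CPM against the summed CPM of the hypoxia gene list, for clusters of at least 100 cells per reaction inside the macrophage-like class (circles, numbered at resolution 1.0) and the Ptprc-low class (squares, numbered at resolution 0.5). Macrophage-like cluster 10 is highest in Vegfa (378 and 423 CPM), while Ptprc-low cluster 3 has 87.2 CPM at a higher hypoxia sum.

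The genes whose profile over the 8 classes and 6 unnamed clusters was most like each member were found by Pearson correlation of log2(CPM + 1) over these 14 groups of cells, among genes with at least 200 UMIs. The groups share libraries and differ in depth, so the values are descriptive. Kdr was closest to Vash1 (r = 0.948), Adgrl4 (0.919) and Gpihbp1 (0.915), Flt1 to Myo1d (0.937), Apold1 (0.935) and Adgrf5 (0.926), and Flt4 to Ptprb (0.948), Rasip1 (0.905) and Clec1a (0.900). Several of these, such as Vash1, Adgrl4, Gpihbp1, Ptprb and Rasip1, are known endothelial genes. Pgf was closest to Slc66a2 (0.905), Cd1d1 (0.903) and Bmp2 (0.887), Nrp1 to Nsd1 (0.916), Zmat1 (0.912) and Glud1 (0.911), and Nrp2 to Tmbim1 (0.894), Zfp202 (0.885) and F8 (0.873). Vegfa was closest to Slc11a2 (0.943), an iron transporter, Ifrd1 (0.925) and St18 (0.923), Vegfb to Irak1bp1 (0.959), Arl6 (0.957) and 1700037H04Rik (0.954), and Vegfc to Gm14399 (0.963), Tnfrsf10b (0.958) and Arhgef28 (0.955).

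The hashtags then allowed the question of whether CPI, ABT-317 or both moved the family inside a class. UMIs were summed per treatment and reaction for classes with at least 20 cells in each sum and fitted across all genes with the edgeR quasi-likelihood test, with p-values adjusted by Benjamini-Hochberg over all genes of a class and contrast. Over 4 classes and 12 class and contrast pairs, 63 member tests gave 5 calls at an adjusted p of at most 0.05. Unnamed clusters 5 and 8 also had sums of at least 20 cells, and their tests are not reported here. Cluster 5, with macrophage markers and 90 and 22 CPI cells, is thus not set beside the macrophage-like calls. In the same pairs 0.00667% to 9.07% of all genes passed. The contrasts share their sums: CPI minus isotype and isotype with ABT-317 minus isotype use the same isotype cells.

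In macrophage-like cells Nrp2 was higher with CPI than with isotype, and Vegfa higher with CPI + ABT-317 than with isotype and ABT-317. Nrp2 was at 39.8 and 32.5 CPM with isotype, 70.8 and 34.4 CPM with isotype and ABT-317, 127 and 255 CPM with CPI (9 and 22 UMIs from 27 and 32 cells), and 93.5 and 83.6 CPM with CPI + ABT-317. The CPI reactions were above all others. The CPI minus isotype difference was 2.26 on the log2 scale (SE 0.41, 4.79-fold, edgeR adjusted p = 0.00318 by Benjamini-Hochberg), and it was 2.97 without reaction 1 and 1.68 without reaction 2. It was the only call among the 4 members tested, where 3.76% of all genes passed and the median gene moved by -0.22. Macrophage-like cells of CPI also had more monocyte marker RNA, summed over the list at 1685 and 1858 CPM against 169 to 464 CPM in the other treatments. Thbs1, tested further on among the secreted factors, made up 151 of the 271 CPM of that list in the whole class. The CPI cells also had a higher epithelial list sum (439 and 186 CPM against 54.7 to 160 CPM, a list whose 71.5 CPM in the whole class was mostly Areg, at 54.7 CPM). They had more T cell and NK cell marker RNA in reaction 1 (113 and 198 CPM, against 0 CPM for both in reaction 2) and fewer UMIs per cell (medians of 2450 and 2682.5 against 3125 to 4430.5). The part of any of these in the Nrp2 difference was not tested.

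Vegfa in macrophage-like cells was at 196 and 198 CPM with isotype, 167 and 138 CPM with isotype and ABT-317, 467 and 186 CPM with CPI, and 286 and 270 CPM with CPI + ABT-317. The CPI reactions stood far apart, on 33 and 16 UMIs, and the 2 ABT-317 groups did not overlap. CPI + ABT-317 was 0.90 above isotype with ABT-317 on the log2 scale (SE 0.18, 1.87-fold, edgeR adjusted p = 0.0113 by Benjamini-Hochberg), as 1 of 4 members called where 2.36% of all genes passed. Against CPI, Vegfa with CPI + ABT-317 differed by 0.0035 (SE 0.27, edgeR adjusted p = 0.999). CPI minus isotype for Vegfa was 0.48 (SE 0.27, edgeR adjusted p = 0.377), and the interaction of CPI and ABT-317 was 0.42 (SE 0.32, edgeR adjusted p = 0.695), so the 2 effects of CPI were not shown to differ. Monocyte markers summed to 464 and 366 CPM with CPI + ABT-317 against 236 and 169 CPM with isotype and ABT-317, and the epithelial list to 144 and 160 CPM against 79.7 and 77.2 CPM, and their part in the Vegfa difference was not tested.

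DESeq2 called the same 2 macrophage-like members, beside 5.62% of all genes for CPI minus isotype and 2.83% for CPI + ABT-317 minus isotype with ABT-317. The remaining macrophage-like contrasts called none of the 4 members by edgeR or by DESeq2, which passed 0.176%, 2.01% and 1.12% of all genes in the order given next. For isotype with ABT-317 minus isotype 0.0235% of all genes passed and 367 genes had an unadjusted p under 0.05. For CPI + ABT-317 minus CPI 0.706% passed, with 1033 genes under 0.05 unadjusted, and for the interaction 0.118% and 896 genes. With the reaction as a block the edgeR fit kept both calls, beside 6.69% of all genes for CPI minus isotype, called none for CPI + ABT-317 minus CPI (3.22%), and called 3 more: Vegfa fell by 0.41 on the log2 scale in isotype with ABT-317 minus isotype (adjusted p = 0.0403, 1.43% of genes passing), Nrp2 rose by 0.81 in CPI + ABT-317 minus isotype with ABT-317 (adjusted p = 0.00729, 6.88%), and the Nrp2 interaction was -1.46 (adjusted p = 0.0315, 2.48%). Unnamed cluster 11, with 12 of 12 macrophage markers and 195 and 174 of its 204 and 186 cells from CPI, had Nrp2 at 234 and 218 CPM and Vegfa at 329 and 334 CPM in those CPI cells. With it added to the macrophage-like class, CPI minus isotype was 2.61 for Nrp2 (edgeR adjusted p = 6.65e-07) and 0.73 for Vegfa (edgeR adjusted p = 0.0012), where 23.4% of all genes passed, and the Nrp2 interaction was -1.84 (edgeR adjusted p = 0.00353), where 6.44% passed. That cluster, added after seeing the data, gave most cells of these CPI sums, beside 27 and 32 macrophage-like cells. It gave only 6 and 1 isotype cells. The fit thus compared clusters as well as treatments, and its p-values do not separate the 2. Without that cluster Nrp1 did not pass in any contrast, with 57.5 and 50.5 CPM for isotype and 0 and 58.0 CPM for CPI.

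The other lists in macrophage-like cells gave the following counts for CPI minus isotype, where 3.76% of all genes passed (6.69% with the reaction as a block). Of 8 interferon-gamma response genes 4 rose (6 with the block), among them Socs1 (2.54) and Irf1 (2.27, both log2 differences). Of 16 hypoxia genes tested 1 rose (Hif1a, 2.02) and 2 fell (Ankrd37, -2.63, and Ldha, -1.05; 4 with the block), with a median of -0.54 beside -0.22 for all genes. Of 5 other secreted angiogenic factors tested, Thbs1, an inhibitor of vessel growth, rose (2.45) and Spp1, osteopontin, fell (-0.89). None of 16 VEGF receptor signaling genes, 5 angiopoietin, Notch and tip cell genes or 3 neuropilin partners tested passed (1 VEGF receptor signaling gene fell with the block). For CPI + ABT-317 minus isotype with ABT-317, where 2.36% of all genes passed (6.88% with the block), 6 of 8 interferon-gamma genes rose (Socs1 by 2.78 and Cxcl9 by 1.91), as did 2 of 16 hypoxia genes (5 with the block), Ndrg1 (1.08) and Hif1a (0.76). For CPI + ABT-317 minus CPI, where 0.706% passed (3.22% with the block), Ldha (0.95) rose and Hif1a (-1.29) fell among 16 hypoxia genes (3 and 1 with the block), Spp1 (1.22) rose and Thbs1 (-1.96) fell among the secreted factors, and Irf1 fell among 8 interferon-gamma genes, to 0.498 of its CPI level. In the interaction, where 0.118% passed, Thbs1 (-1.79) was the 1 list gene past the threshold. With the block, where 2.48% passed, 4 hypoxia genes were positive and 1 negative, and 1 VEGF receptor signaling gene was positive. In that fit 1 interferon-gamma gene was positive and 1 negative, and 1 secreted factor was negative.

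In Ptprc-low cells 1 of the members tested was called, and the most abundant members had close levels in all treatments. Vegfa was at 63.4 and 60.0 CPM with isotype, 58.1 and 57.5 CPM with isotype and ABT-317, 56.2 and 63.0 CPM with CPI, and 67.5 and 63.3 CPM with CPI + ABT-317. Vegfb ranged from 128 to 175 CPM, with reaction 2 above reaction 1 in every treatment, Nrp2 from 63.0 to 79.3 CPM and Vegfc from 8.13 to 14.2 CPM. The CPI sums came from only 61 and 35 cells, against 1364 to 3480 in the other treatments. Kdr and Flt4 did not pass the filter on low counts in this class and were not tested.

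Pgf was the 1 member called for CPI minus isotype among 7 tested, where 8.23% of all genes passed. Its levels were 2.27 and 2.63 CPM with isotype, 1.38 and 1.56 CPM with isotype and ABT-317, 0 CPM in both reactions with CPI, and 1.33 and 1.44 CPM with CPI + ABT-317. CPI had 0 of 2103922 UMIs where the isotype level would give 5.20, so Pgf was at least 1.73-fold lower there, taking 3 counts over the group as the limit (edgeR adjusted p = 0.0358 by Benjamini-Hochberg). DESeq2 gave an adjusted p of 0.0587, and cluster 1 alone, where 7.21% of all genes passed, an edgeR adjusted p of 0.355. The cycling cluster 1, which had the lowest Pgf, made up 70.5% and 77.1% of the CPI cells and 38.9% and 38.0% of the isotype cells, and a fit within cluster 2 or 3 could not be made, since CPI had under 20 cells there in a reaction.

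Nrp1 in Ptprc-low cells was at 19.6 and 16.7 CPM with isotype, 12.2 and 13.2 CPM with isotype and ABT-317, 9.82 and 8.13 CPM with CPI (11 and 8 UMIs), and 17.2 and 13.3 CPM with CPI + ABT-317. The isotype reactions were above those of both isotype with ABT-317 and CPI. CPI minus isotype was -1.12 (SE 0.32) on the log2 scale, which missed the threshold in the edgeR fit (adjusted p = 0.0584) and passed with the reaction as a block (adjusted p = 0.0159, where 17.7% of all genes passed) and with DESeq2 (adjusted p = 0.0321, 12% of genes). Cluster 2, which had the highest Nrp1, was 9.84% and 14.3% of CPI cells and 40.2% and 43.3% of isotype cells. In cluster 1 alone the Nrp1 difference was -0.65 (SE 0.36, edgeR adjusted p = 0.351).

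For the other Ptprc-low contrasts the edgeR fit called none of the 7 members, and DESeq2 called 1, the Nrp1 interaction (adjusted p = 0.0381, where 4.15% of all genes passed, against 0.793%, 5.55% and 3.13% in the other 3 contrasts in the order given next). The share of all genes that passed was 0.00667% for isotype with ABT-317 minus isotype, 2.21% for CPI + ABT-317 minus CPI, 1.63% for CPI + ABT-317 minus isotype with ABT-317 and 1.26% for the interaction, with 1319, 2413, 1960 and 2177 genes at an unadjusted p under 0.05. With the reaction as a block, isotype with ABT-317 minus isotype had 4 of 7 members called beside 26.9% of all genes: Nrp1 (-0.45) and Pgf (-0.68) fell, and Vegfc (0.36) and Nrp2 (0.16) rose. The same fit called 3 of 7 for CPI + ABT-317 minus isotype with ABT-317, beside 27.5% of all genes, all small: Nrp1 (0.21), Vegfa (0.14) and Nrp2 (-0.10). It called none for CPI + ABT-317 minus CPI (10.2%) and 2 for the interaction, beside 11.1%, where Nrp1 was 1.33 with an edgeR adjusted p of 0.00680 and Pgf, with no UMI in CPI, also passed.

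The other lists in Ptprc-low cells gave the following counts for CPI minus isotype, where 8.23% of all genes passed (17.7% with the reaction as a block). Of 17 hypoxia genes tested 9 fell and 0 rose (12 and 2 with the block), with a median of -0.68 against -0.06 for all genes: Ankrd37 (-2.10), Car9 (-1.41), Bnip3 (-1.38) and Pgk1 (-0.94). The cycling cluster 1, which made up the larger share of CPI cells given above, had a lower hypoxia sum (7752 and 8439 CPM) than cluster 3 (13421 and 15102 CPM), which was 18.0% and 8.57% of CPI cells and 20.7% and 18.4% of isotype cells. In cluster 1 alone, where 7.21% of all genes passed, 6 of 17 hypoxia genes fell and 1 rose, with a median of -0.69. All 7 interferon-gamma genes tested rose, led by Cd274 (2.27) and Cxcl9 (1.77). Of 8 other secreted factors Spp1 (0.92), Adamts1 (0.83) and Pdgfa (0.75) rose and Hgf (-1.31) fell. Of 20 VEGF receptor signaling genes Rcan1 rose (0.99), and none of 10 neuropilin partners or of 10 angiopoietin, Notch and tip cell genes passed (1 of each fell with the block). For CPI + ABT-317 minus CPI, where 2.21% passed (10.2% with the block), 5 of 17 hypoxia genes rose (8 rose and 1 fell with the block), led by Bnip3 (1.15) and Ankrd37 (1.14), while 2 of 7 interferon-gamma genes, Cd274 (-1.26) and Irf1 (-0.76), and 1 of 8 secreted factors, Adamts1 (-0.91), fell. For CPI + ABT-317 minus isotype with ABT-317, where 1.63% passed (27.5% with the block), all 7 interferon-gamma genes rose, led by Cxcl9 (1.57) and Cd274 (1.12), 2 of 8 secreted factors rose, Thbs1 (1.36) and Spp1 (0.92), and of the hypoxia genes 1 rose (Egln3, 0.51) and 2 fell, Ankrd37 (-0.77) and Car9 (-0.66), against 2 and 13 with the block. In the interaction, where 1.26% passed, 2 hypoxia genes were positive, Ankrd37 (1.33) and Bnip3 (1.05). With the block, where 11.1% passed, 8 hypoxia genes were positive and 1 negative, and 3 of 7 interferon-gamma genes were negative. In that fit 3 secreted factors were positive and 3 negative, and 2 angiopoietin, Notch and tip cell genes were positive.

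Fibroblast-like cells could be compared for CPI minus isotype alone, on 907 and 719 CPI cells against 48 and 22 isotype cells. Vegfa was at 82.3 and 93.0 CPM with isotype and 46.4 and 36.7 CPM with CPI, and Nrp2 at 47.5 and 44.5 CPM against 18.5 and 13.5 CPM. Neither gene overlapped between treatments. Nrp2 fell by 1.43 on the log2 scale (SE 0.38, to 37.1% of isotype, edgeR adjusted p = 0.0190 by Benjamini-Hochberg) and Vegfa fell by 0.98 (SE 0.28, to 50.9%, edgeR adjusted p = 0.0299), 2 of 5 members tested where 9.07% of all genes passed. Both calls were lost with DESeq2 (adjusted p = 0.0790 and 0.131, where 5.03% of all genes passed) and without a filter on low counts (edgeR adjusted p = 0.241 and 0.283, where 0% passed), and both were kept with the reaction as a block (edgeR adjusted p = 0.00847 and 0.00896, 13% of genes). Nrp1 was at 38.0 and 36.4 CPM with isotype and 74.5 and 48.9 CPM with CPI, a difference of 0.82 that did not pass (SE 0.36, edgeR adjusted p = 0.187).

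The isotype cells of this class were not like the CPI cells in their markers. Fibroblast markers summed to 37697 and 23905 CPM with isotype and 84080 and 88632 CPM with CPI, and macrophage markers to 2733 and 3509 CPM against 1000 and 867 CPM. Hypoxia genes summed to 4685 and 7721 CPM against 2195 and 2233 CPM, and 10 of 18 fell with 1 rising, at a median of -1.46 beside 0.03 for all genes, led by Car9 (-2.94), Egln3 (-2.57), Ankrd37 (-2.50) and Slc2a1 (-2.48). The part of these differences in the Vegfa and Nrp2 values was not tested. Among neuropilin partners 2 of 9 rose, Sema3b (2.71) and Sema3c (0.89), and Sema3a, a ligand of neuropilin 1, fell (-1.32). The angiopoietin list had 3 of 5 risen: Tek (1.83), Angpt1 (1.77) and Cd34 (1.03). Of 19 VEGF receptor signaling genes Fyn rose (1.21), and of 9 secreted factors Cxcl12 (1.29) rose and Spp1 (-1.06) fell. With the reaction as a block 4 neuropilin partners rose. Of 7 interferon-gamma genes 0 rose and 1 fell (Cd274, -2.23), at a median of -0.68, unlike in Ptprc-low and macrophage-like cells, a contrast between classes that was not tested.

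**Figure D5:**
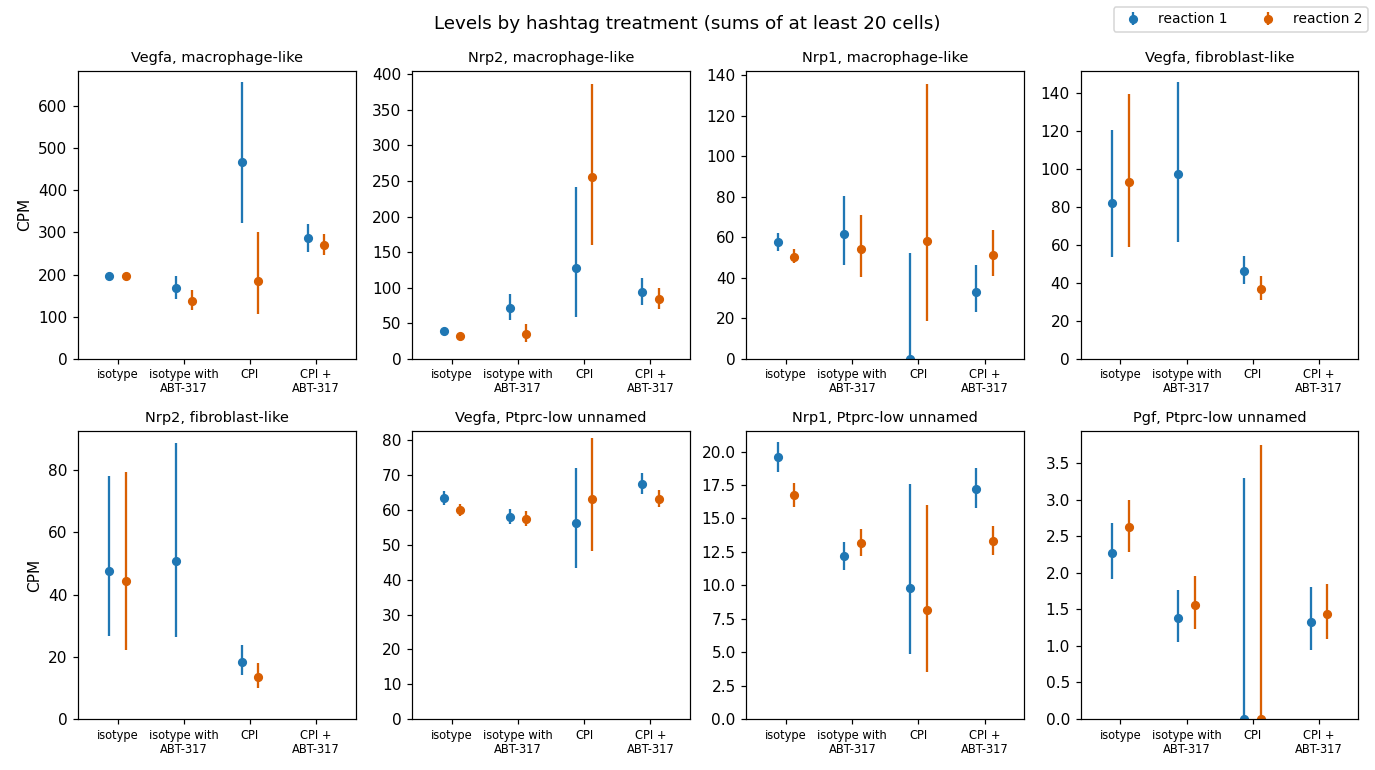
Level (CPM, linear axes from 0) of selected genes by treatment in macrophage-like, fibroblast-like and Ptprc-low cells, with 1 point per reaction, exact Poisson 95% intervals and sums under 20 cells left out. Nrp2 in macrophage-like cells is highest with CPI (127 and 255 CPM), and Vegfa and Nrp2 in fibroblast-like cells are lower with CPI than with isotype.

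In T cell-like cells none of the 3 members tested was called for CPI minus isotype by edgeR or DESeq2, where 3.82% of all genes passed by edgeR (6.8% with the reaction as a block, again with no member) and 1.95% by DESeq2, and 839 had an unadjusted p under 0.05. Nrp1 was at 88.1 and 82.0 CPM with isotype (43 and 30 cells) and 47.2 and 92.0 CPM with CPI (542 and 432 cells), and Vegfa at 33.0 and 105 CPM against 33.9 and 37.2 CPM. Both genes overlapped between treatments. Macrophage markers summed to 9788 and 11873 CPM in the isotype cells and 1873 and 2002 CPM in the CPI cells, and their part in these values was not tested. Of 7 interferon-gamma genes 0 rose and 1 fell (Cxcl10, -1.89), at a median of -0.73. Ldha (-1.02) fell among 13 hypoxia genes tested, and Spp1 (-2.61) fell as 1 of 2 secreted factors tested.

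Endothelial-like and pericyte-like cells were too few for a test between treatments, so their levels are given as values. Flt1 in endothelial-like cells was at 1869 and 1783 CPM with isotype (7 and 6 cells, 62 and 81 UMIs) and 545 and 532 CPM with CPI (40 and 39 cells, 63 and 73 UMIs). Kdr went the other way in reaction 1 but not in reaction 2, at 90.4 and 528 CPM with isotype and 320 and 394 CPM with CPI. Nrp2 was lower with isotype than with CPI in both reactions, by the values given above. Vegfc there was at 211 and 66.0 CPM with isotype (7 and 3 UMIs) and 0 and 29.2 CPM with CPI (0 and 4 UMIs), and Pgf at 90.4 and 22.0 CPM against 121 and 117 CPM. In reaction 1 the isotype level of 211 CPM was 7 UMIs, so the 90.4 CPM of Kdr, Nrp2 and Pgf rested on fewer. Median depth was 4518 and 7197.5 UMIs per cell with isotype and 2440 and 3044 with CPI. Flt1 in pericyte-like cells overlapped between treatments, at 206 and 171 CPM with isotype (30 and 15 cells) and 181 and 183 CPM with CPI (90 and 72 cells). Nrp1 there was at 33.2 and 41.4 CPM with isotype and 159 and 130 CPM with CPI, without overlap.

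The source of Vegfa RNA differed by treatment with the class makeup. Macrophage-like cells held 26.6% and 33.4% of Vegfa UMIs with isotype, 4.59% and 4.23% with isotype and ABT-317, 7.1% and 3.74% with CPI and 10.9% and 12.9% with CPI + ABT-317. Unnamed cluster 11, which carried all 12 macrophage markers, held another 26.7% and 29.0% of the CPI Vegfa UMIs (124 of 465 and 124 of 428) and at most 0.179% in any other treatment, so the CPI share of macrophage-like cells depends on leaving that cluster out of the class. Fibroblast-like cells, 44.5% and 44.0% of the CPI cells, held 34.0% and 31.1% of the CPI Vegfa UMIs and at most 0.708% in any other treatment. Ptprc-low cells held 45.0% and 50.3% with isotype, 79.3% and 92.0% with isotype and ABT-317, 13.5% and 14.5% with CPI and 75.6% and 80.3% with CPI + ABT-317. Ptprc-low cells were 33.8% and 38.9% of isotype cells, 72.9% and 83.5% with isotype and ABT-317, 3.00% and 2.14% with CPI and 71.5% and 73.4% with CPI + ABT-317. T cell-like cells numbered 542 and 432 with CPI but 1 and 5 with CPI + ABT-317. The paper's flow cytometry found similar CD8+ T cell counts in both, a measure per mg of tumor and not a share of sorted cells. The paper's scRNA-Seq of MC38 tumors also compared gene expression in CD8+ T cells between CPI and CPI + ABT-317. The 1 and 5 cells found here would not allow that comparison, so the T cell makeup by treatment was not matched to the paper's. The CPI hashtag was called present from 37 and 26 UMIs, and that of CPI + ABT-317 from 221 and 165. The part of hashtag calling in this makeup was not tested.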

How the data were processed

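The authors aligned 5′ single-cell libraries with Cell Ranger (version 3.1.0 in the submitters' processing notes and 8.0.1 in the matrix headers) to GRCm38 (mm10) and deposited filtered matrices of raw UMI counts, genes and antibodies together. The paper's methods name other Cell Ranger versions, and which made the deposited matrices is not clear. The count matrices of the 2 MC38 tumor reactions were used, with 435031691 and 377184807 gene UMIs; the lymph node matrices were not used here.

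Barcodes with at least 200 genes and under 10% mitochondrial UMIs were kept. The methods' upper limit of 2500 genes was tried as an alternative only, because it kept 94.4% and 88.2% of CPI barcodes but only 23.2% and 22.3% of CPI + ABT-317 barcodes. A hashtag was present at a posterior of 0.5 or more in a 2-component normal mixture of its log counts, and the deposited key gave the treatment. No doublet caller was run: barcodes with several hashtags were left out. UMIs per 10000 were log transformed, 2000 variable genes (without the 9 members) gave 50 principal components and a graph of 15 neighbors, and Leiden clustering was run at a resolution of 0.5 (leidenalg 0.10.2, igraph 0.11.9, Python 3.11.15). Clusters were named from 18 marker lists, none holding a member; clusters of low depth without leading markers stayed unnamed.

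UMIs were summed per class, treatment and reaction. Sums of at least 20 cells were tested with edgeR 4.0.16 (R 4.3.3; quasi-likelihood test, TMM, filterByExpr), adjusted by Benjamini-Hochberg over all genes of a class and contrast. This was tested on simulated data. DESeq2 1.42.0, no TMM, no filter, another hashtag rule, the gene limit, a resolution of 1.0, no top 5% of UMIs, the reaction as a block, and leaving out each reaction were the alternatives. Alternatives without barcodes found in both reactions, on single Ptprc-low clusters and with cluster 11 as macrophages were chosen after seeing the data. A reaction holds all treatments and is a shared batch, so its number pairs the sums: correlations of same-reaction deviations from the treatment means were 0.054 to 0.343 in macrophage-like, 0.077 to 0.557 in Ptprc-low, 0.11 in fibroblast-like and 0.102 in T cell-like cells.

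The text names all 9 members, the 3 genes most alike to each over the 14 groups of cells, and of each list up to 4 of the genes past the threshold per class and contrast, taken by the size of the fold change. The members and lists were chosen with earlier results of these data known. Gene coordinates come from GENCODE M21, which held 31961 of the 33696 gene IDs (94.85%), and promoters from RefSeq, where all 9 members matched.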

Additional observations from a re-analysis of the deposited data

How the results depend on the processing

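The class with the highest level was the same for all 9 members with all passing barcodes, a resolution of 1.0, a mean over cells, and without barcodes found in both reactions. With fewer than 2500 genes per barcode, and without the top 5% of UMIs, it was the same for 8, since Vegfa was then highest in neutrophil-like cells, at 232 and 237 CPM. Leaving out either reaction kept all 9 (9 and 9 members). The other hashtag rule and cluster 11 added were not run for the levels by class. Treatment calls were less stable. Against 5 member calls, the edgeR fit with the reaction as a replicate block gave 18. With the block 1.43% to 27.5% of all genes passed by class and contrast, against 0.00667% to 9.07% without it. Cluster 11 added to the macrophage-like class gave 9 calls, a resolution of 1.0 gave 3, leaving out the top 5% of UMIs 3, and the limit of 2500 genes 2. In the last 3 settings the isotype sums of fibroblast-like cells fell under 20 cells, and with the gene limit the same held for Ptprc-low cells of CPI, so the fits could not be made. DESeq2 gave 4 calls, where 0.176% to 12% of all genes passed, and no filter on low counts 7. The counts of calls in these settings are therefore not read as changes in the family alone. The macrophage-like Nrp2 and Vegfa calls passed in all alternatives that gave a test on that class. Of these, the alternative with cluster 11 added compared clusters as well as treatments. With the hashtag lead rule Nrp2 in fibroblast-like cells missed the threshold (edgeR adjusted p = 0.0738), and the log2 difference of Pgf in Ptprc-low cells was -1.94. The sign turned in 5 cases, none past the threshold. For CPI + ABT-317 minus isotype with ABT-317 in Ptprc-low cells these were Nrp1, at -0.28 with fewer than 2500 genes and -0.0928 in cluster 3 alone, Nrp2 at 0.0123 in cluster 1 alone and Vegfa at -0.0696 in cluster 3 alone. Nrp1 for isotype with ABT-317 minus isotype was 0.46 with fewer than 2500 genes. The cause was not tested. Leaving out a reaction left 1 sum per treatment and so fold changes with no test; no sign turned among them. Depth limits Flt4, with 25 UMIs in each reaction, and all CPI values in macrophage-like and Ptprc-low cells.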

Other observations

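CD304 antibody was higher in 1 library and group of cells than anywhere else: unnamed cluster 10 had 1123 CD304 UMIs per 10000 panel UMIs in reaction 1 (516 cells) and 346 in reaction 2 (45 cells), against 371 to 456 in every other class or unnamed cluster. Its Nrp1 RNA was 29.9 and 12.4 CPM. Its CD31 antibody, at 23.9 and 27.1 per 10000, was within the range of the isotype controls.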
